A study of Homo sapiens with 2 samples.

Results

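The DEP domain is a small globular fold, named after the proteins Dishevelled, Egl-10 and Pleckstrin, that docks signalling proteins to membranes, receptors and each other. DEPDC1B, the gene knocked down in this series, encodes such a protein. The 9 genes described here encode other human proteins with a DEP domain: DEPDC1, DEPDC4, DEPDC5, DEPDC7, DEPTOR, DVL1, DVL2, DVL3 and PREX1. They were taken by symbol from a table of 39720 gene symbols, and all 9 were found. The list does not hold every human DEP domain gene, and 11 further ones are described with the partner genes below.

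RNA was sequenced from A549, an established human lung adenocarcinoma cell line. One sample received lentivirus for a hairpin that targets DEPDC1B (shDEPDC1B) and the other lentivirus for a negative control hairpin (shNC), both with 5 µg/mL polybrene, and cells were harvested on day 2. Infection and polybrene were thus shared by both groups. Each group has 1 library, so there is no replicate check, no p-value is given, and what is compared is 2 libraries rather than 2 conditions. The sources used here give neither the hairpin sequence nor whether cells were selected or cloned.

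The proteins work in separate pathways. DEPDC5 is part of GATOR1, the complex that switches off the Rag GTPases, and so the growth kinase complex mTORC1, when amino acids are scarce, and DEPTOR binds and inhibits mTOR itself. DVL1, DVL2 and DVL3 are the Dishevelled proteins, which carry Wnt signals from Frizzled receptors through their DEP domain to beta-catenin or to the planar polarity branch. PREX1 is an exchange factor that activates the GTPase RAC1 when PIP3 and G protein beta-gamma subunits are present. DEPDC1 is the closest relative of DEPDC1B and, like it, is known as a gene of dividing cells.

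The libraries held 18647290 counts (shNC) and 18862371 counts (shDEPDC1B). Values are estimated counts rounded to whole numbers, or CPM, counts set to a common library size with trimmed-mean (TMM) factors. Square brackets hold exact 95% intervals, which cover counting error only. DEPDC1B itself had 329 counts in shNC and 39 in shDEPDC1B, a log2 ratio of -2.997 [-3.51, -2.52]. Of 8 markers of A549 and lung epithelium, all had at least 30 counts in the higher library, from 37 and 65 counts for EPCAM to 193173 and 166832 for ALDH1A1. CDKN2A, deleted in A549, had 2 and 3 counts. Leukocyte markers summed to 107 and 177 counts, nearly all from CD14, with PTPRC at 0 and 2 and CD3E at 0 in both libraries. Fibroblast markers summed to 113 and 116, nearly all from COL1A1, and endothelial markers to 13 and 10.

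Short hairpin RNAs act by base pairing with transcripts, so the coding sequences of the 9 genes were compared with that of DEPDC1B. DEPDC1 was identical to DEPDC1B at 65.6% of 1526 aligned bases. The longest run the pair shares has 13 bases and lies at bases 125 to 137 of both coding sequences, and DEPDC7 shares 12 bases a little further along the DEPDC1B sequence. These 2 pairs are shown, from GENCODE 29 transcripts on GRCh38, with the shared run in capitals and 15 bases on each side. All 4 stretches lie in coding exons, at chr5:60687124-60687166 (minus strand) and chr1:68494592-68494634 (minus strand) for the first pair and at chr5:60687108-60687149 (minus strand) and chr11:33025778-33025819 (plus strand) for the second.
DEPDC1B with DEPDC1: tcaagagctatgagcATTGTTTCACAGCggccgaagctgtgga
DEPDC1: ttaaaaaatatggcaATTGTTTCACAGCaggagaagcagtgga
DEPDC1B with DEPDC7: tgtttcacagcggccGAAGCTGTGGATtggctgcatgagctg
DEPDC7: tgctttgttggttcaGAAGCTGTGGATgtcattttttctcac
The longest run shared with any of the other 7 genes had 10 to 12 bases. No window of 19 bases from any annotated coding transcript of DEPDC1B, untranslated parts included, occurred in a coding transcript of any of the 9. Shorter matches in untranslated parts were not searched. The hairpin sequence is not known, so pairing of the hairpin with these transcripts was not tested.

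Genes entered the comparison when 1 of the libraries had at least 30 counts, which all 9 passed. They were called higher or lower in shDEPDC1B when the scaled levels differed at least 1.5-fold and the interval left out equality. Of the 9 genes 4 were lower in shDEPDC1B (DEPDC7, DEPTOR, DVL2 and DVL3) and 0 were higher. In bulk RNA, fewer cells with a transcript and less of it per cell cannot be told apart. Over all 13850 assessed genes, 19.6% were called lower and 19.2% higher. Scaled by library totals, 3207 genes were called lower and 2029 higher, against 2708 and 2662 with TMM, and the same 4 DEP domain genes were called. The intervals of 6 of the 9 excluded equality, against 73.8% of all assessed genes. Their median log2 ratio was -0.14, against 0.04 over all assessed genes, with a range from -1.09 to 0.49.

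**Figure D1:**
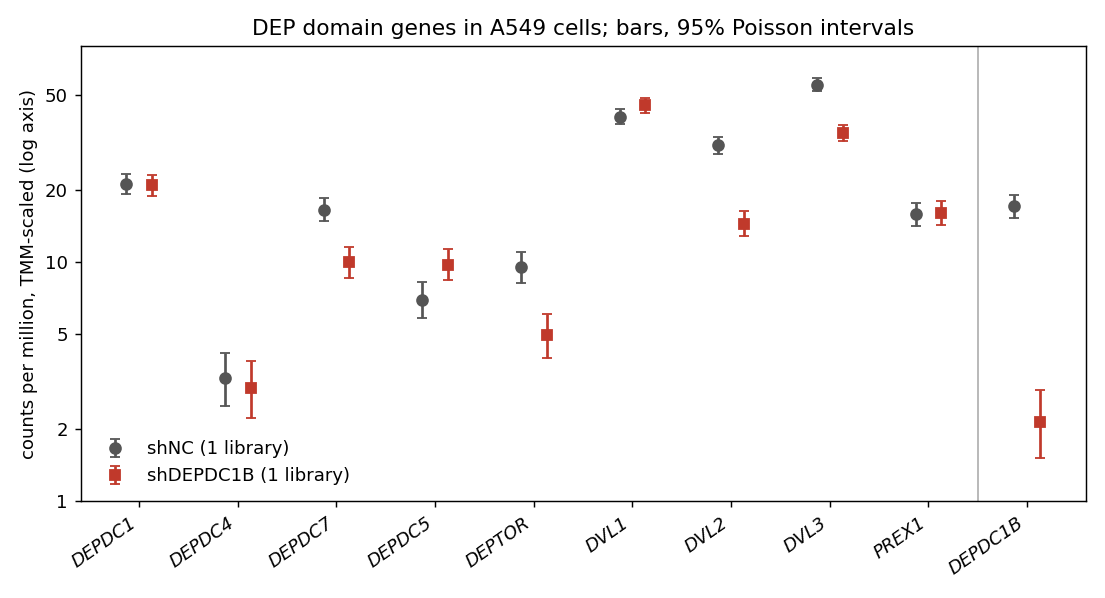
TMM-scaled CPM (log axis) of the 9 DEP domain genes and, right of the line, DEPDC1B, in the shNC library (circles) and the shDEPDC1B library (squares); bars are 95% Poisson intervals of counting error. The intervals of the libraries are apart for DEPDC7, DEPDC5, DEPTOR, DVL2 and DVL3, and overlap for DEPDC1, DEPDC4, DVL1 and PREX1.

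DEPDC1 (GRCh38 chromosome 1, 68474152 to 68497221, minus strand), whose protein binds the zinc finger repressor ZNF224, was at 21.3 CPM [19.3, 23.4] in shNC and 20.9 CPM [18.9, 23.1] in shDEPDC1B. Its counts were 410 and 382, and the log2 ratio was -0.02 [-0.23, 0.18]. The 2 libraries were thus level for DEPDC1 within counting error, and the interval places it between 85.4% and 113.5% of the shNC level. The count ratio of DEPDC1 to DEPDC1B went from 1.246 in shNC to 9.79 in shDEPDC1B, a 7.86-fold [5.44, 11.6] difference that no scaling of the libraries can alter. After a fit of ratios on transcript length and GC content, described below, DEPDC1 stood at 0.48 [0.27, 0.68].

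DEPDC7 (chromosome 11, 33015864 to 33033582, plus strand), whose protein interacts with the CARMA scaffold proteins of the NF-kappaB pathway, had 319 counts in shNC and 182 in shDEPDC1B. That is 16.5 CPM [14.8, 18.5] and 9.98 CPM [8.58, 11.5], with intervals that do not meet. It was 1.66-fold [1.38, 2.00] lower. DEPDC4 (chromosome 12, 100203669 to 100267079, minus strand) had the fewest counts of the 9, with 63 in shNC and 54 in shDEPDC1B. A difference in DEPDC4 was not detectable at this depth: its log2 ratio was -0.14 [-0.69, 0.41], which allows anything from 61.8% to 132% of the shNC level. DEPDC4 overlaps ACTR6 on the opposite strand (957 and 816 counts), and the sources used here do not say whether the counting used strand.

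The genes of the 2 mTOR pathway inhibitors went apart. DEPTOR lies on chromosome 8 (119873717 to 120050913, plus strand) and DEPDC5 on chromosome 22 (31753867 to 31908033, plus strand), where another coding gene model of GENCODE 29 overlaps 153135 bases of it on the same strand. DEPTOR counts were 183 in shNC and 90 in shDEPDC1B, or 9.49 CPM [8.17, 11.0] and 4.93 CPM [3.97, 6.06]. This left 52.0% [39.9, 67.3] of the shNC level, a log2 ratio of -0.94 [-1.32, -0.57]. For DEPDC5 there were 134 counts (shNC) and 178 (shDEPDC1B), or 6.95 CPM [5.82, 8.23] and 9.76 CPM [8.38, 11.3]. Its log2 ratio of 0.49 [0.16, 0.82] was the highest of the 9, with an interval above equality but a size below 1.5-fold, so it was not called. A looser fold threshold called DEPDC5 higher, as it did 31.5% of all assessed genes, and added no other gene of the 9. The ratio of DEPDC5 to DEPTOR counts was 0.732 in shNC and 1.98 in shDEPDC1B, 2.70-fold [1.90, 3.84] apart. This is 1 of 36 pairs of the 9 genes, of which 22 had an interval excluding an equal ratio, and it is named after its value was seen.

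The 3 Dishevelled genes had the most counts of the 9 in shNC, and before the length and GC fit their log2 ratios did not share a sign. DVL1 lies on chromosome 1 (1335276 to 1349350, minus strand), DVL2 on chromosome 17 (7225341 to 7234545, minus strand) and DVL3 on chromosome 3 (184155311 to 184173614, plus strand). DVL2 counts were 593 in shNC and 264 in shDEPDC1B, or 30.8 CPM [28.3, 33.3] and 14.5 CPM [12.8, 16.3]. It was 2.13-fold [1.84, 2.47] lower and the only one of the 9 called at 2-fold, where 8.97% of assessed genes were called lower and 5.86% higher. DVL3 had 1063 and 630 counts, or 55.1 CPM [51.9, 58.6] and 34.5 CPM [31.9, 37.3], which is 1.60-fold [1.45, 1.76] lower. DVL1 had 781 and 824 counts, or 40.5 CPM [37.7, 43.5] and 45.2 CPM [42.1, 48.4], and was not called. Its log2 ratio was 0.16 [0.01, 0.30], with an interval that held equality under scaling by library totals (0.06 [-0.08, 0.20]). The interval also held equality with DESeq2 size factors (0.10 [-0.04, 0.25]) and TMM on protein-coding genes (0.13 [-0.01, 0.28]). After the length and GC fit the DVL1 ratio was below 0 (-0.19 [-0.34, -0.05]).

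The makeup of the Dishevelled counts, with no length and GC fit subtracted, differed between the libraries. DVL1 made up 32.0% [30.2, 33.9] of the 2437 Dishevelled counts in shNC and 48.0% [45.6, 50.4] of the 1718 in shDEPDC1B. The share of DVL2 was 24.3% [22.6, 26.1] in shNC and 15.4% [13.7, 17.2] in shDEPDC1B, and that of DVL3 43.6% [41.6, 45.6] and 36.7% [34.4, 39.0]. By counts DVL3 had the largest share in shNC and DVL1 in shDEPDC1B, but per kilobase of transcript DVL1 had the largest in both (37.9% in shNC and 55.3% in shDEPDC1B), since the DVL3 transcript is the longest of the 3. DVL1 counts per DVL2 count went from 1.32 to 3.12, a 2.37-fold [1.98, 2.84] difference, and DVL3 counts per DVL2 count from 1.79 to 2.39, a 1.33-fold [1.11, 1.59] difference. Both pairs are among the 22 of 36 pairs of the DEP domain genes described here whose interval excluded an equal ratio. After the length and GC fit the log2 ratios stood at -0.19 (DVL1), -1.33 (DVL2) and -0.61 (DVL3), against 0.16, -1.09 and -0.67 before it. The gap between DVL1 and DVL3 was thus narrower after the fit, and that between DVL2 and DVL3 wider. Summed, the 3 Dishevelled genes were at 74.5% [70.0, 79.3] of the shNC level without the fit.

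**Figure D2:**
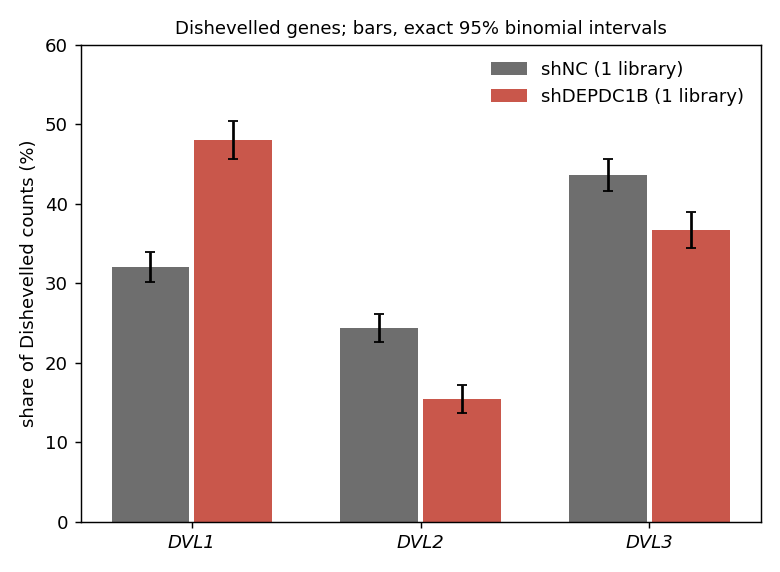
Share of all Dishevelled counts (percent) that came from DVL1, DVL2 and DVL3 in the shNC library (grey) and the shDEPDC1B library (red), with exact 95% binomial intervals. DVL1 went from 32.0% to 48.0%, and DVL2 from 24.3% to 15.4%.

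How far reads of these paralogs can be mistaken for each other shows in their sequences. Coding sequences were identical at 73.6% (DVL1 and DVL2), 74.7% (DVL1 and DVL3) and 75.0% (DVL2 and DVL3) of aligned bases. The longest shared run of each pair is shown in capitals with 15 bases on each side, the run of 36 bases first, then that of 29 bases and that of 23 bases. All lie in coding exons, for the first pair at chr1:1338276-1338341 (DVL1, minus strand) and chr3:184167993-184168058 (DVL3, plus strand), for the second at chr1:1340075-1340133 (DVL1, minus strand) and chr17:7229172-7229230 (DVL2, minus strand), and for the third at chr17:7227178-7227230 (DVL2, minus strand) and chr3:184167937-184167989 (DVL3, plus strand).
DVL1 with DVL3: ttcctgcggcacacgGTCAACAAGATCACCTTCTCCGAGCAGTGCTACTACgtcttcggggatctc
DVL3 with DVL1: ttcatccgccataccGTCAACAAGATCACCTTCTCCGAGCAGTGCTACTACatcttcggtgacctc
DVL1 with DVL2: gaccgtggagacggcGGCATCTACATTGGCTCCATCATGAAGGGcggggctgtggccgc
DVL2 with DVL1: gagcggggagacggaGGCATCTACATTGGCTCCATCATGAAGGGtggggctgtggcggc
DVL2 with DVL3: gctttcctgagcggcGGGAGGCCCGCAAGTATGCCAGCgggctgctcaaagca
DVL3 with DVL2: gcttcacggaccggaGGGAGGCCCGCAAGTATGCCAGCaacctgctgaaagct
The estimated counts of DVL1, DVL2, DVL3, DEPTOR and DEPDC4 were deposited with fractions in at least 1 library. Those of DEPDC1, DEPDC5, DEPDC7 and PREX1 were whole in both. The part of read sharing in the Dishevelled values was not tested.

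PREX1 lies on chromosome 20 (48624252 to 48827883, minus strand). Its counts were 305 in shNC and 292 in shDEPDC1B, or 15.8 CPM [14.1, 17.7] and 16.0 CPM [14.2, 17.95]. Its log2 ratio was 0.02 [-0.22, 0.25], so the interval holds values between 85.9% and 119% of the shNC level. Its sign was not fixed, with a log2 ratio of -0.08 when libraries were scaled by totals and 0.14 after the length and GC fit.

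Levels of different genes were set side by side per kilobase of the longest annotated coding transcript, since long transcripts give more reads. In shNC the order was DVL1 at 12.5 CPM per kilobase, DVL3 at 10.3, DVL2 at 10.2, DEPDC7 at 8.22, DEPDC1 at 3.99, DEPTOR at 3.69, DEPDC4 at 2.80, PREX1 at 2.38 and DEPDC5 at 1.07. Neighbours whose intervals overlapped were DVL3 and DVL2, DEPDC1 and DEPTOR, DEPTOR and DEPDC4, and DEPDC4 and PREX1. In shDEPDC1B, DVL1 was at 13.9 CPM per kilobase and DVL3 at 6.47, followed by DEPDC7 at 4.96 and DVL2 at 4.80, whose intervals overlapped. DEPTOR was at 1.92 there, with DEPDC5 at 1.51 as the lowest and an interval that met that of DEPTOR. Which isoforms A549 cells use is not known from gene counts. DEPDC5 alone has 27 annotated coding transcripts of 288 to 6479 nucleotides, and its level per kilobase depends on which of them is taken.

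Ratios across the whole table moved with transcript length (Spearman correlation -0.51 across 13013 genes, which are not independent replicates), and each gene was set beside those of like length. The 4 lower genes have transcripts of 2012 (DEPDC7), 2569 (DEPTOR), 3018 (DVL2) and 5335 (DVL3) nucleotides. The lower quartiles of log2 ratios in their length deciles were -0.04, -0.14, -0.27 and -0.62, and the log2 ratio of each of the 4 was below its own. A linear fit on length and GC content was made over the 13013 assessed genes with a transcript length. After it was subtracted, the 4 lower genes stood at -0.78 (DEPDC7), -0.97 (DEPTOR), -1.33 (DVL2) and -0.61 (DVL3), and all 4 were still called. In that setting 1752 of 13013 genes were called lower and 1685 higher. The fit held 24.6% of the variance in ratios. The median of the 9 genes was -0.37 after it, against 0.04 over the assessed genes with a length. DEPDC1, with 5331 nucleotides nearly as long as DVL3, was between the quartiles of its decile (-0.62 and 0.14). DEPDC5, with 6479 nucleotides, was above the upper quartile of its decile (-0.02) and stood at 0.72 [0.39, 1.05] after the fit, which makes it called higher there. DEPDC4, with 1165 nucleotides in a decile of median 0.56, stood at -0.37 [-0.92, 0.18].

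**Figure D3:**
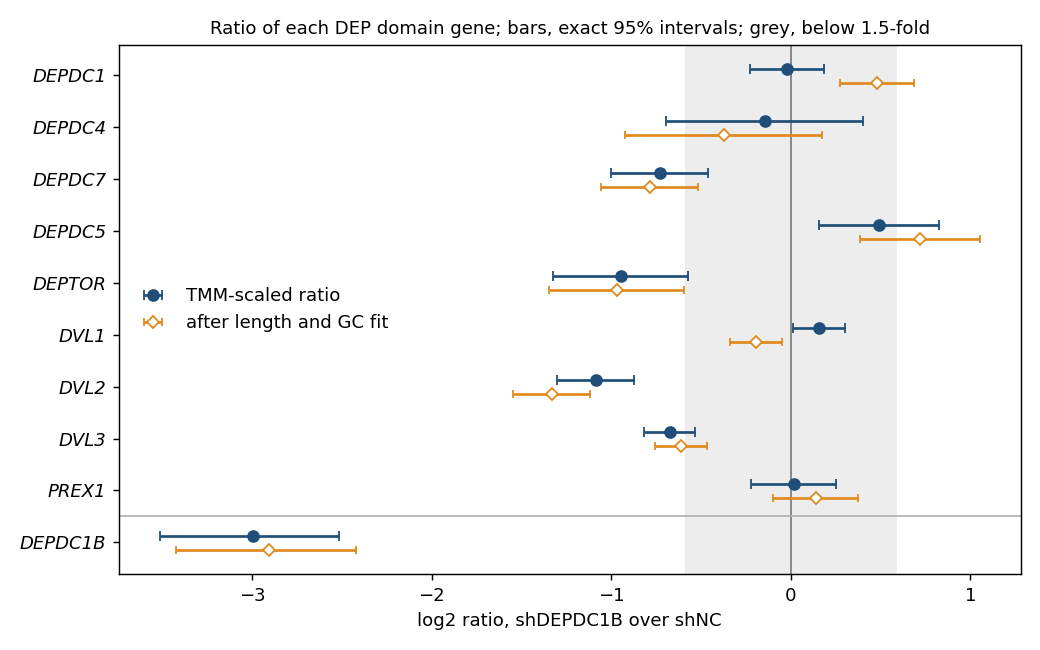
Log2 ratio of shDEPDC1B over shNC for each DEP domain gene, with exact 95% intervals, before (filled circles) and after (open diamonds) the length and GC fit was subtracted; grey marks ratios under 1.5-fold and DEPDC1B stands below the line. DEPDC7, DEPTOR, DVL2 and DVL3 are left of the grey band in both, while DEPDC1 goes from -0.02 to 0.48 and DVL1 from 0.16 to -0.19.

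**Figure D4:**
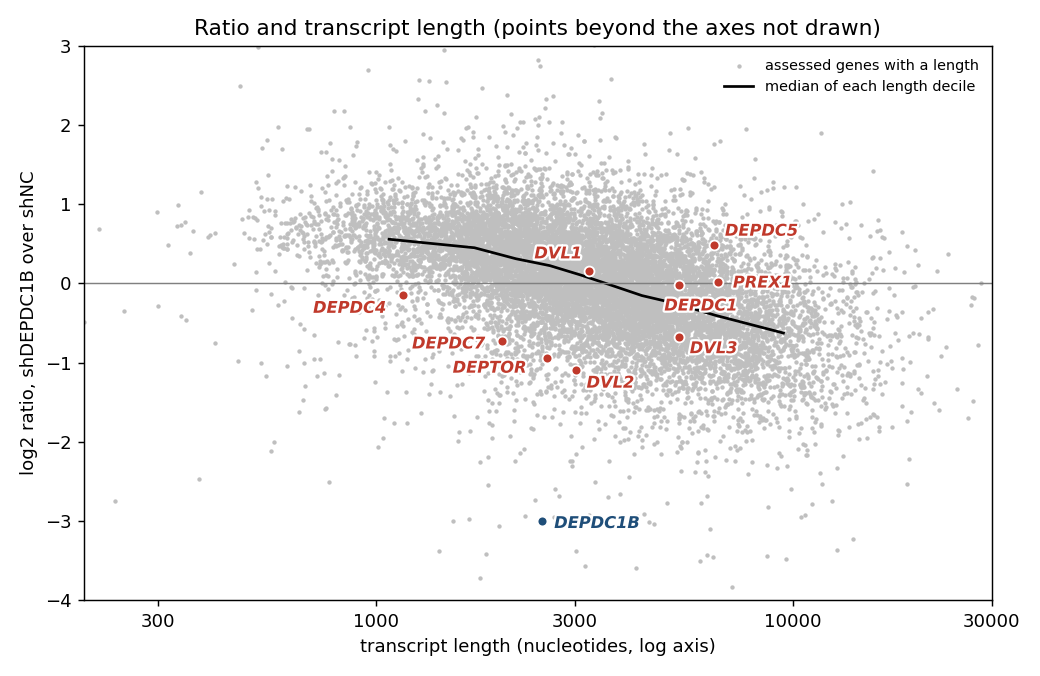
Log2 ratio of shDEPDC1B over shNC against transcript length (nucleotides, log axis) for assessed genes (grey), with the median of each length decile (black line), the 9 DEP domain genes (red) and DEPDC1B (blue). DEPDC4, DEPDC7, DEPTOR, DVL2 and DVL3 lie below the line of medians, and the other 4 above it.

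Counts of called genes in the lists that follow stand beside 19.2% higher and 19.6% lower over all assessed genes. Of 12 further DEP domain genes, DEPDC1B included, 6 were assessed. RGS11, a regulator of G protein signalling, was higher (19 and 35 counts, log2 ratio 0.96 [0.12, 1.85]), but at 0.55 after the length and GC fit, and under the 100-count filter it was not assessed. DEPDC1B and PIKFYVE, the kinase that makes PI(3,5)P2 on endosomes, were lower, PIKFYVE with 1542 and 825 counts and a log2 ratio of -0.82 [-0.95, -0.70]. PIKFYVE has a transcript of 9901 nucleotides and stood at -0.19 after the length and GC fit. PLEK2, RAPGEF3 and GPR155 were not called. The 6 under 30 counts, and so not assessed, were PREX2, the close relative of PREX1, PLEK, RGS6, RGS7, RGS9 and RAPGEF4. RAPGEF4 had 26 and 5 counts, a log2 ratio of -2.30 [-4.04, -0.89].

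Around DEPDC5, 33 genes of GATOR1, its recruiter KICSTOR, GATOR2, the amino acid sensors, the Rag and Ragulator proteins and the TSC branch were assessed, and 10 were higher and 5 lower, with a median log2 ratio of 0.20. The other GATOR1 subunits were NPRL2, higher at 0.73 [0.45, 1.02], and NPRL3, at 0.19 [0.03, 0.35] and not called, so all 3 subunits, DEPDC5 included, had a log2 ratio above 0, though after the length and GC fit NPRL3 stood at -0.06 and NPRL2 at 0.32, no longer called. The arginine sensor CASTOR1 was the highest at 1.81 [1.63, 1.99], followed by CASTOR2 at 1.20, which has close copies in the genome and is uncertain. LAMTOR4 of Ragulator (0.86) and RHEB, the GTPase that activates mTORC1 (0.80), were also higher. Lower were the GATOR2 subunits SEC13 (-0.83) and SEH1L (-0.67), which also serve in the nuclear pore, the sestrin SESN1 (-0.70) and the Rag GTPase RRAGB (-0.75), a close paralog of RRAGA. Another GATOR2 subunit, WDR59 (0.67 [0.56, 0.78]), and another sestrin, SESN2 (0.76 [0.52, 1.01]), were higher instead. With the length and GC fit subtracted, 9 genes of this list were higher and 2 lower, against 1685 and 1752 of 13013 genes. The higher genes were partly others: SESN3 (0.83), BMT2 (0.76), LAMTOR3 (0.68) and TSC2 (0.61) were called only after the fit. CASTOR1 (1.28), RHEB (0.64), WDR59 (0.92), SESN2 (0.59), SEC13 (-1.23) and RRAGB (-0.85) were still called, whereas CASTOR2 (0.58), LAMTOR4 (0.03), SEH1L (-0.42) and SESN1 (-0.55) were not.

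Around DEPTOR, 13 genes of the mTOR complexes and of DEPTOR degradation were assessed, with 1 higher, 3 lower and a median log2 ratio of -0.06. MLST8, a subunit of both mTOR complexes, was higher at 1.21 [1.06, 1.36]. MTOR was at -0.10 [-0.19, 0.00] and RPTOR, the mTORC1 scaffold, at 0.45 [0.33, 0.58], and neither was called. RICTOR, the mTORC2 scaffold, was lower at -0.73 [-0.84, -0.62] but at -0.01 after the length and GC fit. FBXW11, one of the ubiquitin ligase adaptors that mark DEPTOR for breakdown, was lower at -0.998 [-1.10, -0.90] and at -0.76 after the fit, while its relative BTRC was at -0.08 and not called. CSNK1A1, the kinase that primes DEPTOR for that step, was lower at -0.70 and at -0.23 after the fit.

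Around the Dishevelled genes, 27 of 33 Frizzled, co-receptor, polarity and scaffold genes were assessed, with 3 higher, 8 lower and a median log2 ratio of -0.19. The receptor gene FZD2 was higher at 1.14 [1.02, 1.26], the co-receptor gene LRP5 at 0.89 [0.82, 0.95] and the kinase gene CSNK1D at 0.65. The co-receptor gene LRP6 (-0.79 [-0.91, -0.68]) and the receptor genes FZD4 (-1.01) and FZD6 (-0.63) were lower instead. With the length and GC fit subtracted, LRP6 stood at -0.13, FZD4 at -0.60 and FZD6 at -0.34. The lower genes with the farthest intervals were the planar polarity genes VANGL2 (-1.24 [-1.70, -0.79]), PRICKLE1 (-1.10 [-1.42, -0.78]) and CELSR2 (-0.87), and CCDC88C (-1.05), whose protein binds the Dishevelled PDZ domain. After the length and GC fit they stood at -1.11 (VANGL2), -0.77 (PRICKLE1), -0.59 (CELSR2) and -0.88 (CCDC88C), all still called. Relatives of the polarity genes, VANGL1 (0.01), PRICKLE2 (-0.16), PRICKLE3 (-0.19), CELSR1 (-0.40) and CELSR3 (-0.32), were not called before the fit. After it PRICKLE3 was called lower at -0.65, and VANGL1 (0.52), PRICKLE2 (0.39), CELSR1 (-0.11) and CELSR3 (-0.01) were not called. FZD2 (0.65) and LRP5 (0.82) were still called higher after the fit, and CSNK1D (0.54) was not.

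Around PREX1, 17 genes of its inputs and of RAC signalling were assessed, with 5 higher, 4 lower and a median log2 ratio of 0.09. Its substrate RAC1 was higher at 0.69 [0.64, 0.75], as were RHOG (0.80), the phosphatase gene PPP1CA (0.68) and the G protein beta subunit GNB2 (0.62). After the length and GC fit RHOG stood at 0.21, PPP1CA at 0.13 and GNB2 at 0.09, and RAC1 at 0.65. The G protein gamma subunit GNG12 was at -2.91 [-3.03, -2.79], with 4907 and 618 counts, and at -2.55 after the fit. Also lower were the phosphoinositide kinase genes PIK3R1 (-1.18, and -0.67 after the fit) and PIK3CA (-0.73, and -0.01 after the fit) and the RAC effector PAK2 (-0.67, and -0.22 after the fit). PIK3R2, a relative of PIK3R1, was at 0.56 [0.43, 0.69] and not called.

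Of 7 NF-kappaB partners of DEPDC1 and DEPDC7, 5 were assessed, with 0 higher and 2 lower and a median log2 ratio of -0.47. The lower genes were ZNF224 (-0.76 [-0.97, -0.56]), the partner of DEPDC1, and MALT1 (-0.92 [-1.04, -0.79]), the protease of the CARMA complex. After the length and GC fit ZNF224 stood at -0.49 and MALT1 at -0.28, and 0 genes of this list were called. TNFAIP3, the NF-kappaB inhibitor gene that DEPDC1 and ZNF224 are known to repress, was at -0.47 [-0.66, -0.28] and not called.

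**Figure D5:**
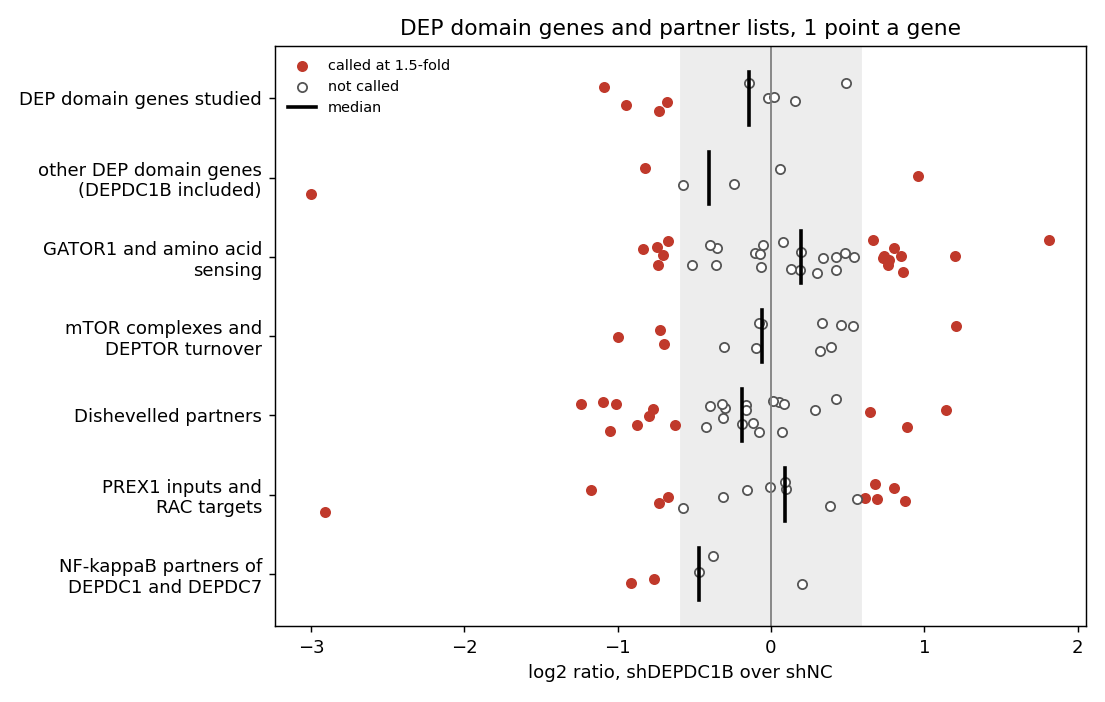
Log2 ratio of shDEPDC1B over shNC for the 9 DEP domain genes (top row) and the assessed genes of each partner list, 1 point a gene; filled points were called at 1.5-fold, open points were not, black bars are medians and grey marks ratios under 1.5-fold. Medians run from -0.47 for the NF-kappaB partners to 0.20 for the amino acid sensing genes, and that of the 9 genes is -0.14.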

How the data were processed

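A549 RNA was compared between 2 libraries, 1 per hairpin, grouped by the treatment label. The authors deposited RSEM-type estimated counts by gene symbol; the submitters' processing notes name Bowtie2, RSEM and the build hg38. The sources used here give no versions, annotation, strand setting or RNA selection. Values were rounded and scaled with TMM factors (1.03 for shNC, 0.967 for shDEPDC1B) from edgeR 4.0.16 in R 4.3.3. edgeR's tests need replicates and were not run. Ratios carry exact Clopper-Pearson intervals, levels exact Poisson intervals, and ratios between 2 genes exact conditional intervals, all at 95%. Reads carry no molecular identifiers, so these cover counting error only. Intervals are not adjusted for the number of genes. For counts of 0 a floor of 3 was used. Transcript lengths, GC content, coordinates and sequences are from GENCODE 29 (GRCh38), for the longest coding transcript, and 94.0% of assessed genes had them. No protein sequences were used. The 9 genes, the partner lists and the calling rule were chosen with earlier results of these data known. Named were the 9 genes, DEPDC1B, 7 fixed partners and up to 4 called genes per list and direction with the farthest interval bounds. Uncalled or unassessed genes of small lists, BTRC, TNFAIP3, SESN3, BMT2, LAMTOR3 and TSC2 were named after their values were seen. So were WDR59, SESN2, LRP6, FZD4, FZD6, VANGL1, PRICKLE2, PRICKLE3, CELSR1, CELSR3 and PIK3R2. The calling step was run on counts simulated with counting error alone, which cannot show how calls hold between replicate libraries. The 11 alternatives were DESeq2 1.42.0 size factors, library totals, upper-quartile factors, TMM on protein-coding genes, 2 count filters, 2 fold thresholds, a prior count, the length and GC fit, and a loess on mean expression.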

Additional observations from a re-analysis of the deposited data

How the results depend on the processing

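DEPDC7, DEPTOR, DVL2 and DVL3 were called lower under 10 of the 11 alternatives; at a 2-fold threshold 1 gene, DVL2, was. No gene of the 9 was called higher, except that DEPDC5 was the 1 gene called at the looser fold threshold and the 1 gene called after the length and GC fit. Over the partner lists, with 6, 33, 13, 27, 17 and 5 assessed genes, 20 genes were higher and 24 lower, DEPDC1B among the lower. Over all assessed genes 19.2% were higher and 19.6% lower. At 2-fold the lists had 4 and 7, against 5.86% and 8.97% of all assessed genes. At the looser threshold 32 were higher and 35 lower, against 31.5% and 28.8% of all assessed genes. After the length and GC fit 15 were higher and 12 lower, against 1685 and 1752 of 13013 genes. The cause was not tested. No called ratio of the 9 genes changed sign. The filter of 100 counts removed DEPDC4. With 1 library per group no library could be left out. No paired analysis was possible because each group has 1 library. Differences too small for the interval to leave out equality, as for DEPDC4, were not detectable at this depth.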
